A study of Mus musculus with 3 samples.

Results

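Untreated wild-type mouse dendritic cells (DCs) that carried PDL2 on their surface were compared with untreated cells of the same kind of culture that did not. PDL2, encoded by Pdcd1lg2, binds PD-1, a receptor that restrains T cells. The cells came from bone marrow kept in culture with GM-CSF (granulocyte-macrophage colony-stimulating factor) for 5 days and were then sorted on PDL2 by flow cytometry. The comparison uses 2 of the 3 arrays of the study, 1 for PDL2-negative untreated cells and 1 for PDL2-positive untreated cells. The third array, PDL2-negative cells given 100 ng/ml LPS, a cell wall component of Gram-negative bacteria sensed through TLR4, is used for normalization and is quoted where it helps to place a level. All measured genes are members, 17886 in number. All groups are wild type, and the labels give no strain, age or number of mice. Nothing in the sort named by the labels, other than PDL2, separates DCs from other cells that GM-CSF supports.

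A DC first takes up and samples its surroundings and later, once matured, moves to a lymph node and shows what it collected to T cells. Maturation is known to raise the lymph node homing receptor CCR7, T cell-attracting chemokines and costimulatory ligands, and to shut down endocytosis and division. Microbial products such as LPS drive maturation, and in GM-CSF cultures some DCs mature with no stimulus added. GM-CSF cultures of mouse marrow also hold macrophage-like cells, which depend on the CSF1 receptor and express complement C1q, Fc receptors and MerTK.

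Each array gave 1 log2 signal per gene, from the brightest of its probe sets. A floor was set at 5.58, the median of all normalized values, and a gene was described if it lay above the floor on at least 1 of these 2 arrays. A fold against a level at the floor is a lower bound, written "at least". With 1 array a side there is no spread between samples, no test and no p-value, so a gene is called higher or lower only by size, at 2-fold or more. Among the 10926 genes so described, 1102 (10.1%) had the higher signal in PDL2-positive cells and 1416 (13%) the lower, and the median log2 difference was 0.01. These percentages and this median are the background against which every gene list below is read. The percentages varied with signal, and the background is not adjusted for this. In the lowest quartile of mean signal 3.77% were higher and 6.77% lower, and in the highest 14.3% and 13.8%. The share of lower genes was largest in quartile 3, at 15.8%. At 8-fold or more, 189 genes were higher and 280 lower, and at 32-fold or more the counts were 32 and 28. Most genes, 61.9%, lay within 1.5-fold, and such genes are called level below. Of the described genes, 1106 (10.1%) had exactly the same deposited value on both untreated arrays. Whether this comes from the processing behind the deposited values was not tested. A level gene with a low signal is therefore no evidence of equal expression. The only measure of error is technical. It covers the 4251 genes for which at least 2 probe sets passed the floor in both gates. For these, the log2 differences given by the brightest probe set and the next had a robust SD of 0.29 around each other, or 1.22-fold. Of the 964 such genes past 2-fold by the brightest probe set, 97% had the same direction by the next. Only 70.5% were also past 2-fold in that direction by the next. How much cultures vary was not measured.

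**Figure D1:**
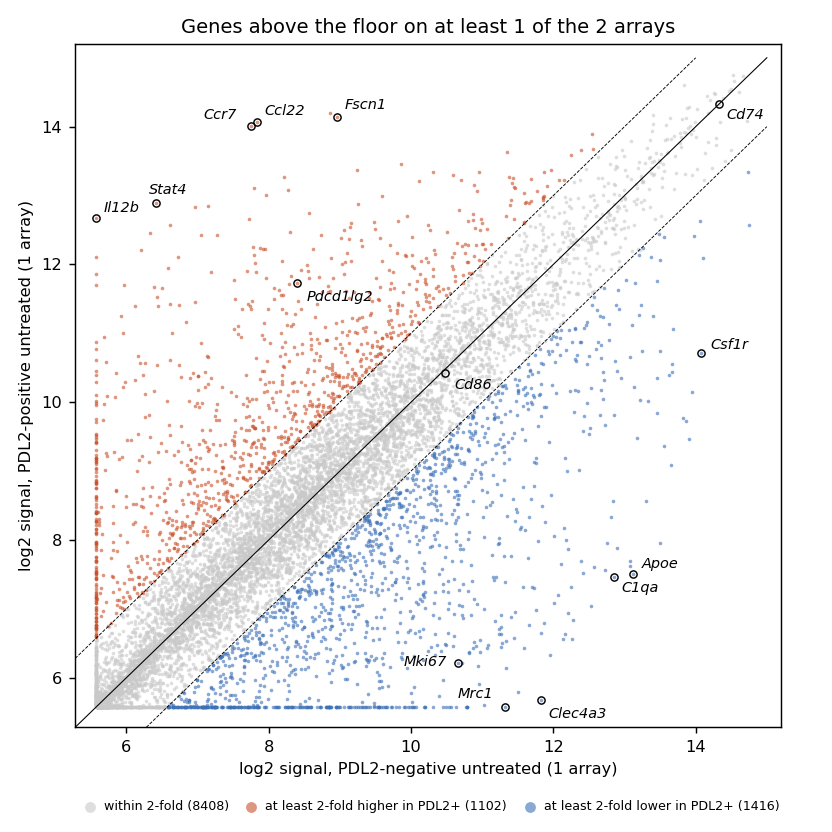
Log2 signal of each gene above the floor on the PDL2-negative array (horizontal) and the PDL2-positive array (vertical), with values below the floor drawn at the floor. The solid line marks equal signals and the dashed lines 2-fold; 1102 genes lie above the upper dashed line and 1416 below the lower one, with Stat4, Ccr7 and Ccl22 at the top left and Clec4a3, Mrc1 and C1qa at the lower right.

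The labels were first set against marker genes. The arrays measure bulk RNA, in which fewer cells of a type and less RNA per cell cannot be told apart. Pdcd1lg2 itself had a log2 signal of 8.40 in PDL2-negative and 11.73 in PDL2-positive cells, 10.1-fold higher in the sorted-positive cells. The other markers used here for PDL2-positive mature DCs stood further apart. Ccr7 was at 7.74 and 14.01, Ccl22, a chemokine that attracts CCR4-bearing T cells, at 7.83 and 14.07, and Stat4, a transducer of IL-12 signals, at 6.41 and 12.90, in that order of groups. All 4 were thus higher in PDL2-positive cells. They were chosen with earlier results of these data known, so this is no independent check of the labels.

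Promoter windows from RefSeq (GRCm38.p6) of 300 bases, from 250 before to 50 after a start site, were found for 8919 of 10926 genes above the floor. Windows on 1 chromosome were left out of this count and of all motif shares below. The 6 shown belong to genes on which the comparison turns: the sort gene, the gene with the largest increase above the floor on both arrays, a non-canonical NF-kB subunit, the mannose receptor, an interferon-stimulated gene and a mitotic cyclin. Capitals mark every match, on either strand, to 1 motif a window, named before each sequence. The window and the motif marked were chosen gene by gene, and matches to the other motifs searched are not marked. The windows shown are therefore not a sample of promoters.
Pdcd1lg2 (chr19:29410669-29410968, plus strand), capitals mark the ETS core GAGGAA: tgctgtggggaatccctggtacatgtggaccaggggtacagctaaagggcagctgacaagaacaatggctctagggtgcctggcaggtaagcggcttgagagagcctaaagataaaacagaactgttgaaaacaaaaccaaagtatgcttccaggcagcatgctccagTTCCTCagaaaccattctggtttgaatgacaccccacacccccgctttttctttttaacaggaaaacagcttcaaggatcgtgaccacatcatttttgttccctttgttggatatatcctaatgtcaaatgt
Stat4, the second of 2 start sites (chr1:52007990-52008289, plus strand), capitals mark the interferon response motif (GAAA, any 2 bases, GAAA): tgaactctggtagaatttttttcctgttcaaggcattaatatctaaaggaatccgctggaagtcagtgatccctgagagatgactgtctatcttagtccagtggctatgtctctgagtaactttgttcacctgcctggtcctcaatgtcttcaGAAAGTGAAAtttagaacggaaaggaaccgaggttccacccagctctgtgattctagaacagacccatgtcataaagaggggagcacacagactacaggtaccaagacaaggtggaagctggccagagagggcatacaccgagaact
Nfkb2, the first of 3 start sites (chr19:46304487-46304786, plus strand), capitals mark the NF-kB motif (GGG, any 3 bases, TTCC): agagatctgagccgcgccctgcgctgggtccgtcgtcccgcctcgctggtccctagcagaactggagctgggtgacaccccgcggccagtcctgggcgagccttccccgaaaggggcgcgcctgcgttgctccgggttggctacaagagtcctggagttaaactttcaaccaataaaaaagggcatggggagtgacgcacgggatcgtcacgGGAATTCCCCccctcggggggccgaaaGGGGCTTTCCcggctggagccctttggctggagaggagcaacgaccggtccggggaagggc
Mrc1 (chr2:14229164-14229463, plus strand), capitals mark GAGGAA: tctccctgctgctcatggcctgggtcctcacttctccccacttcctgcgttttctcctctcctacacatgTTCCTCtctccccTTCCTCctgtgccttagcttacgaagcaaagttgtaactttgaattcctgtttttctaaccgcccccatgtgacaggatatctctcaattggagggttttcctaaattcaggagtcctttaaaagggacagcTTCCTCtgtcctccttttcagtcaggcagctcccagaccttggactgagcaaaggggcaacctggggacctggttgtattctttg
Ifit1 (chr19:34640639-34640938, plus strand), capitals mark the same motif as in Stat4: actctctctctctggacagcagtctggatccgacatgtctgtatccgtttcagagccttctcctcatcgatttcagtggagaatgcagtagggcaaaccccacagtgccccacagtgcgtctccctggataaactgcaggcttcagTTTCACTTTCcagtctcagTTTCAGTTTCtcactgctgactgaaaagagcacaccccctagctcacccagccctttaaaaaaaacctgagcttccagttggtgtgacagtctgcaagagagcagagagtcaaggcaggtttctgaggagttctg
Ccnb2 (chr9:70421505-70421804, minus strand), capitals mark the NF-Y motif ATTGG: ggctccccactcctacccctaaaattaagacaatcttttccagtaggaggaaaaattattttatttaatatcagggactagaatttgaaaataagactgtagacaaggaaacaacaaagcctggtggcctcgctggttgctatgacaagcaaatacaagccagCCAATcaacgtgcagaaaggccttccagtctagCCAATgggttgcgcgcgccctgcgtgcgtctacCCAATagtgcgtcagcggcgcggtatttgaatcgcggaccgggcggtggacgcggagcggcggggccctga

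The Nfkb2 window held 2 matches to the NF-kB motif, the Ifit1 window 2 to the interferon response motif, the Mrc1 window 3 to the ETS core and the Ccnb2 window 3 to the NF-Y motif. Over the first window of each gene, matches were then counted in genes of each direction. The NF-kB motif was in 6.77% of 886 windows of higher genes, 6.26% of 1166 of lower genes and 5.97% of 6867 of genes within 2-fold, against 5.53% of all RefSeq windows. The interferon response motif was in 3.39%, 5.23% and 2.50% of the same 3 sets and 3.49% of all. A C/EBP motif, TTGCNNAA, was in 6.55%, 11.2% and 7.67%, and 10.8% of all, the AP-1 motif TGANTCA in 4.29%, 7.03% and 4.82%, and 7.93% of all, and the ETS core in 27.3%, 31.9% and 25.9%, and 28.3% of all. The other 4 motifs searched were the E-box CACGTG (8.80%, 12.1%, 10.2% and 7.24% of all), the NF-Y motif (37.5%, 39.5%, 37.8% and 37.9%), the cell cycle motif TTTGAA (10.5%, 14.2%, 11.3% and 18.1%) and the E2F motif TTTNGCGC (1.81%, 2.23%, 2.65% and 1.38%). None of these differences was tested. The windows of lower genes also differed in base composition, with a median of 17 CG pairs against 22 in higher genes and 21 in genes within 2-fold, so the motif shares are not independent of it. A match is a run of letters, not a bound site.

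Several DC lineage genes were higher in PDL2-positive cells as well. The classical DC factor gene Zbtb46 was at 7.08 and 9.44 (5.15-fold higher), Flt3, the receptor for a DC growth factor, at 7.51 and 9.40 (3.71-fold higher), and Kit, the stem cell factor receptor, at 6.26 and 9.78 (11.4-fold higher). Irf4, a factor of DC migration, was 10.4-fold higher and Irf8, a factor of DC lineage choice, 5.26-fold higher. Batf3 was 6.54-fold higher, Spib 7.24-fold higher, Nfil3 4.91-fold higher and the surface peptidase gene Dpp4 4.77-fold higher. The integrin gene Itgax, whose product CD11c is the usual DC marker, went the other way, with 11.48 in PDL2-negative and 9.81 in PDL2-positive cells. The list held 31 measurable DC lineage genes, 13 of them higher and 8 lower, and its median log2 difference was 0.53. Its largest difference was a decrease, that of Cd209a (log2 difference -4.87, a bound set by the floor). The genes named here are thus mostly from the higher side of a list that went both ways. On the LPS array, Zbtb46 (7.50), Flt3 (7.31), Irf4 (7.44) and Batf3 (7.17) lay within 1 log2 unit of the PDL2-negative untreated array.

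Macrophage genes were high in the PDL2-negative gate and low in the PDL2-positive one. The 8 defining macrophage markers measured all had lower signals in PDL2-positive cells, and their median log2 difference was -4.52. Csf1r, the CSF1 receptor gene, was at 14.08 and 10.72, C1qa at 12.86 and 7.46, C1qb at 13.65 and 9.09 and Adgre1, the usual mouse macrophage surface marker gene, at 12.01 and 8.06 in PDL2-negative and PDL2-positive cells. Mertk, a receptor for dying cells, was at 9.31 and 5.65 and Fcgr1 was at 10.96 and 5.90. The summed signal of these markers was 15.74 in PDL2-negative, 11.60 in PDL2-positive and 15.70 in LPS-treated PDL2-negative cells on the log2 scale. In the longer list of macrophage identity genes, 38 of 43 were lower and 1, Cxcl16, was higher, with a median of -3.32. The larger differences in it included Apoe (48.7-fold lower), the iron exporter gene Slc40a1 (25.2-fold lower), Tlr7 (at least 30.1-fold lower), Ms4a7 (18.3-fold lower), Cd68 (18.3-fold lower) and Selenop (12.9-fold lower). The macrophage factor gene Maf was 27.3-fold lower (10.94 and 6.16). How far macrophage-like cells in the PDL2-negative gate contribute to the lower genes described below was not tested.

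Most genes that define resident tissue macrophages were not measurable. Vsig4, Timd4, Marco, Clec4f, Cd5l and Lyve1 were at the floor on both untreated arrays, as were 13 of 19 genes in the wider list of this kind. Of the 6 measurable genes of that list 3 were lower and 1 higher (median -0.74). Spic was 5.21-fold higher, while the lipid-binding protein gene Fabp4 was 9.10-fold lower, Siglech 3.46-fold lower and Chil3 2.03-fold lower. Monocyte genes were lower, 15 of 21 with a median of -1.43: Vcan was at 10.06 and 6.65, Itgam at 10.97 and 6.37 and the chemokine receptor gene Ccr2 at 9.27 and 7.81. The calgranulin genes S100a8 (12.89 and 12.83) and S100a9 (12.76 and 12.77) were level across both gates. Neutrophil and precursor markers were also level, Elane at 7.84 and 7.68, Mpo at 8.14 and 7.68, Ltf at 8.85 and 9.06 and Ngp at 11.31 and 11.49. The B cell marker Cd79a, the NK cell marker Ncr1 and the haemoglobin gene Hba-a1 were at the floor on both arrays, the T cell marker Cd3e was just above it at 6.17 and 6.19, and the mast cell markers Cpa3 (7.21 and 7.45) and Mcpt8 (7.61 and 7.91) differed by less than 2-fold. In the wider mast cell and basophil list 1 of 6 measurable genes was higher, Kit, and 0 were lower. Kit was also the 1 higher gene of 17 in the granulocyte and progenitor list, in which 2 were lower. Of 11 lymphocyte, NK and plasmacytoid DC genes 1 was higher and 3 were lower. Xist was high on both arrays (11.80 and 12.02), and the Y-linked genes Eif2s3y, Kdm5d and Uty were at the floor on both.

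A PDL2-negative gate that holds immature DCs and macrophage-like cells, and a gate of immature DCs that express macrophage genes, cannot be told apart in these data either. Every result below is therefore a difference between 2 sorted populations.

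**Figure D2:**
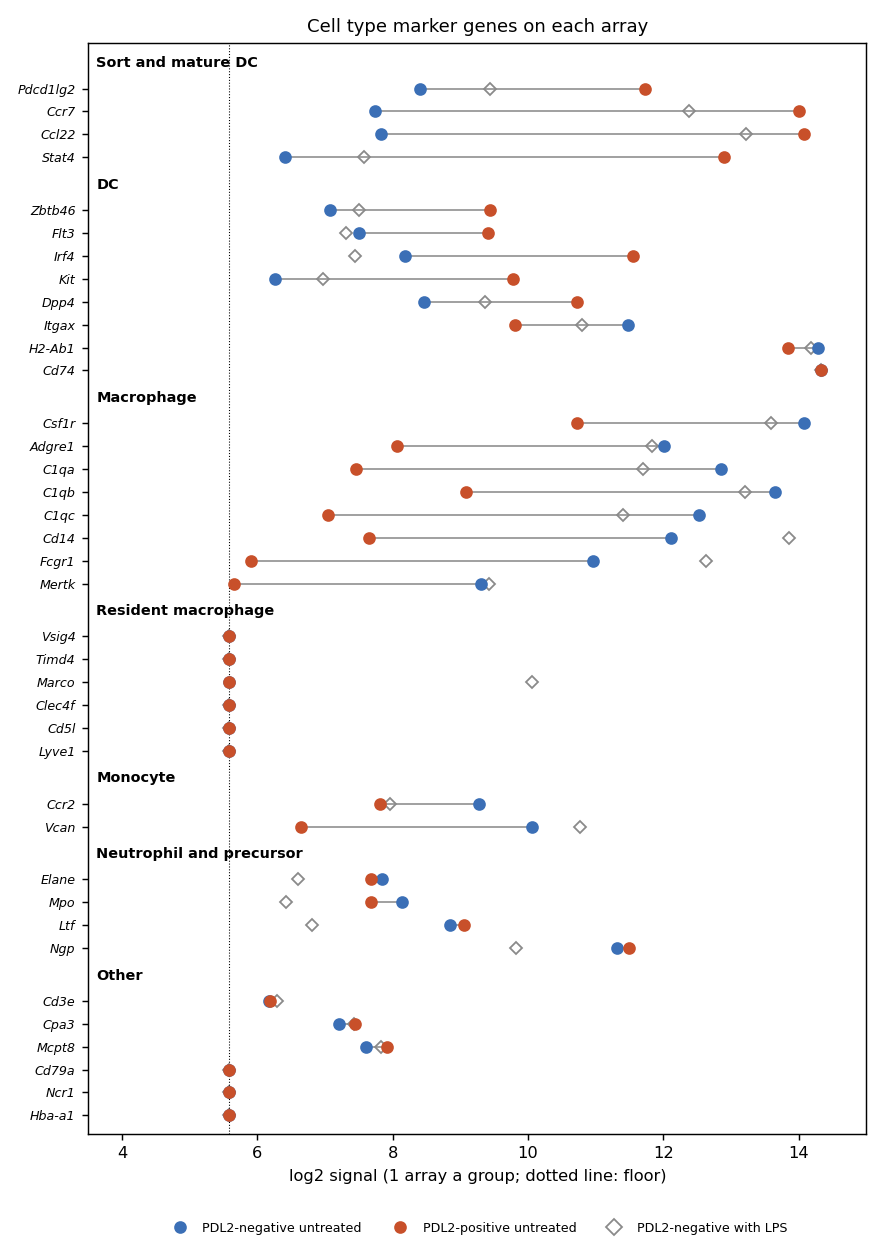
Log2 signal of cell type marker genes on the PDL2-negative untreated (blue), PDL2-positive untreated (red) and LPS (open grey diamond) arrays, with the dotted line at the floor and values below it drawn on it; where points coincide only the red point shows. The 8 macrophage markers lie to the left in PDL2-positive cells, 5 of the DC markers lie to the right, and the 6 resident macrophage markers are at the floor on both untreated arrays.

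PDL2-positive cells had higher signals for 43 of the 44 measurable mature migratory DC genes and a lower one for 0, and the median log2 difference was 3.58. The list was chosen with earlier results of these data known, so this count is not independent evidence. The median signal of the list was 7.80 in PDL2-negative and 11.92 in PDL2-positive cells. Fscn1, whose product bundles the actin of dendrites, was at 8.96 and 14.14. Serpinb9, an inhibitor of granzyme B, was 33.0-fold higher. Samsn1, an adaptor protein gene, was at 8.27 and 13.08, and Cd83, a surface stabilizer of MHC class II, at 9.24 and 13.38. Tbc1d4, the gene of a GTPase-activating protein that turns Rab proteins off, was 18.1-fold higher, Mreg 18.2-fold higher and Zmynd15 31.1-fold higher. Nudt17 was at least 32.8-fold higher, Poglut1 10.3-fold higher, Laptm4b 9.39-fold higher and Slco5a1 at least 12.6-fold higher. At the low end were Cd274, the PD-L1 gene, at 9.92 and 10.92, on the edge of the 2-fold rule and below it with the deposited values or median centring, and Rasal1, the 1 gene of the list within 2-fold, which was close to the floor (5.60 and 5.58 or less).

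T cell ligands did not all follow. Tnfsf4, the OX40 ligand gene, was 33.3-fold higher, Slamf1 was 4.48-fold higher, Icosl 2.38-fold higher and Cd80 2.41-fold higher. Cd86, at 10.48 and 10.43, was level. Tnfsf9, the 4-1BB ligand gene, was at least 4.28-fold lower, whereas its receptor gene Tnfrsf9 was 64.4-fold higher. Among cytokine subunits, Il12b was at 5.58 or less and 12.68, while Il12a and Il23a, whose products pair with that of Il12b, were at the floor on both arrays. Ebi3 was 2.74-fold lower and Il18 3.49-fold lower, and Il15 and its presenting receptor gene Il15ra were 2.34-fold higher and 11.3-fold higher. Of 16 genes in this list, 9 were higher and 4 lower.

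Genes that restrain T cells or favour tolerance also split, with 9 higher and 8 lower of 22. Aldh1a2, which makes retinoic acid, was at 5.58 or less and 10.77 and was at least 36.6-fold higher. Itgb8, an integrin chain that activates latent TGF-beta, was at least 11.7-fold higher, Cd200, a ligand that quiets myeloid cells, 6.67-fold higher, Fas 8.33-fold higher and Ido1, a tryptophan-degrading enzyme gene, 2.92-fold higher. The galectin gene Lgals9 was 24.4-fold lower, the ectonucleotidase gene Entpd1 at least 22.1-fold lower, Havcr2 at least 5.14-fold lower and Btla at least 3.68-fold lower. The tolerance enzyme genes Arg1 and Ido2 were at the floor on both arrays, and so was Il10.

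Of 58 genes of actin bundling, podosomes and cell shape, 15 were higher and 8 lower (median 0.13). Beside Fscn1, the filopodial protein genes Marcksl1 (8.58-fold higher) and Marcks (2.77-fold higher), the short-tailed myosin gene Myo1g (4.33-fold higher), the actin nucleator gene Spire1 (3.35-fold higher) and the membrane linker gene Rdx (2.89-fold higher) were higher. Tubulin genes were among the higher ones, Tuba1a at 11.44 and 13.25 and Tubb6 at 8.89 and 10.14. Another myosin gene, Myo1f, which serves adhesion in neutrophils and macrophages, was 29.2-fold lower, and Rac2, a GTPase of the phagocyte oxidase, was at 11.60 and 8.14. The filament-capping genes Capg and Gsn were 5.65-fold lower and 3.69-fold lower, Lmna, a nuclear lamin gene, 6.05-fold lower and Rhob 6.18-fold lower. The general genes Cfl1 (13.50 and 13.48), Rhoa (12.30 and 12.29) and Rac1 (13.01 and 12.95) were level.

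Receptors for chemoattractants were mostly lower in PDL2-positive cells, with Ccr7 the main exception. Ccr7 was higher, as were Ptger4 (a prostaglandin E2 receptor gene, 5.99-fold higher), Cxcr4 (3.54-fold higher) and Ccr6 (2.60-fold higher), and these were the 4 higher of 26 receptors in the list, against 17 that were lower. Ccr1, a receptor for inflammatory chemokines, was at 12.21 and 6.94 and was 38.5-fold lower. The formyl peptide receptor gene Fpr2 was 14.6-fold lower, the anaphylatoxin receptor genes C3ar1 and C5ar1 10.2-fold lower and at least 11.1-fold lower, the leukotriene receptor gene Cysltr1 at least 9.35-fold lower, the oxysterol receptor gene Gpr183 7.38-fold lower and the sphingosine phosphate receptor gene S1pr2 5.25-fold lower. Cx3cr1, the fractalkine receptor, was at least 3.43-fold lower, whereas its ligand gene Cx3cl1 was 23.7-fold higher.

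Integrin chains differed in both directions. Itgam, Itgal and Itgb2, whose products form the leukocyte beta 2 integrins, were 24.3-fold lower, at least 26.6-fold lower and 8.62-fold lower. Itgb7 was 10.5-fold lower and Itgb5 7.72-fold lower. Itga4 was at 9.93 and 12.13 and Itga6, a laminin receptor chain, at 8.80 and 11.09, 4.61-fold higher and 4.91-fold higher. Of 14 integrin chains above the floor, 3 were higher, 8 lower and 3 within 2-fold. Icam1 and Vcam1, ligands of integrins, were 4.70-fold higher and 4.88-fold higher. The tetraspanin gene Cd53 was 19.3-fold lower, Alcam was at 11.65 and 8.33 and the E-cadherin gene Cdh1 at least 9.34-fold lower.

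G protein signalling held several pairs of relatives with opposite differences. Ramp3, a partner of calcitonin-family receptors, was at 6.33 and 12.46 and its relative Ramp1 at 10.88 and 7.15. The adenylyl cyclase gene Adcy6 was 39.0-fold higher and Adcy7 8.46-fold lower. Ptger2 and Ptger3, the relatives of Ptger4, were at least 6.27-fold lower and at least 22.5-fold lower. Among P2Y nucleotide and lipid receptors, P2ry10 was 7.48-fold higher and P2ry1 2.19-fold higher, and P2ry6, P2ry12, P2ry13 and P2ry14 were lower, P2ry6 from 11.95 to 6.33. The phosphodiesterase genes Pde4b and Pde4d, which break down cyclic AMP, were 8.32-fold higher and at least 14.8-fold higher, and the proton-sensing receptor gene Gpr65 was at 8.65 and 11.24. The whole list had 11 higher and 16 lower genes of 48, so the pairs were chosen from it after their values were seen.

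**Figure D3:**
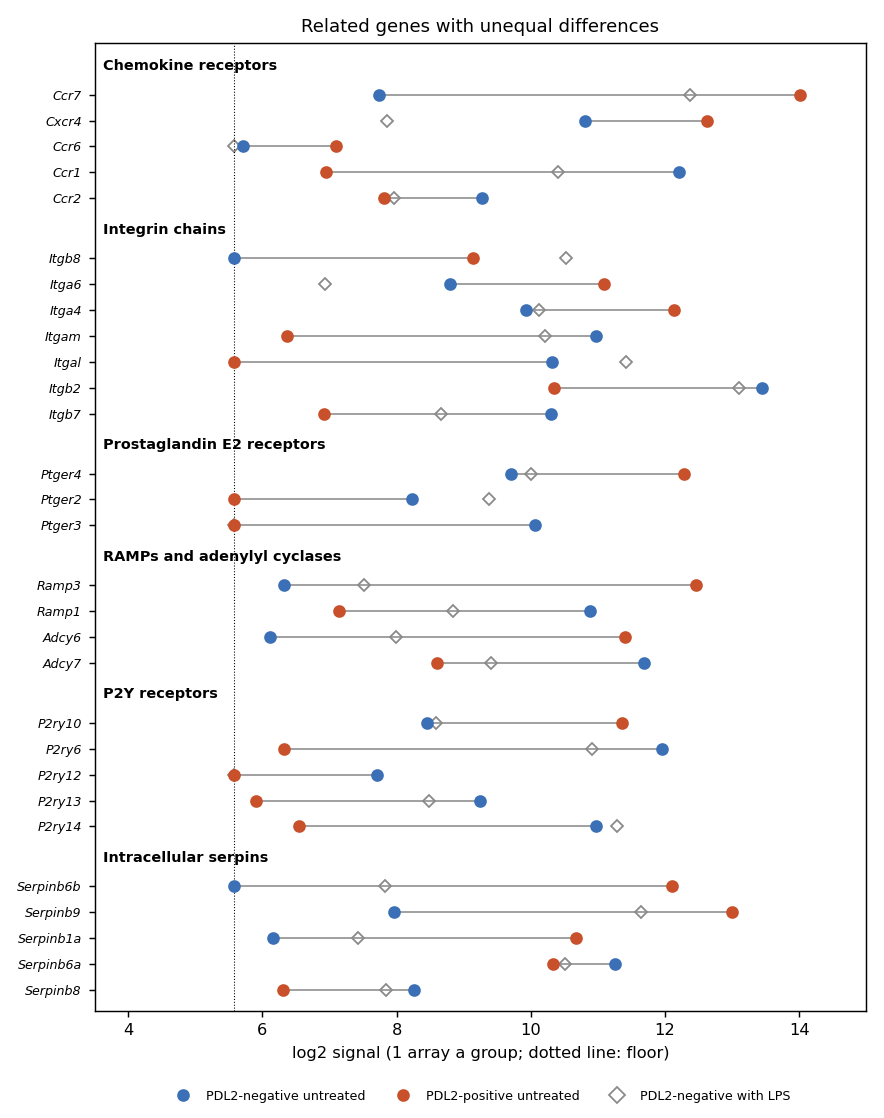
Log2 signals of related genes that differed unequally, drawn as in the plot of marker genes (blue, PDL2-negative untreated; red, PDL2-positive untreated; grey diamond, LPS). In each family 1 or more members lie to the right and others to the left in PDL2-positive cells, as for Ramp3 and Ramp1 or Adcy6 and Adcy7.

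Signal transduction genes are described next, from receptors to nuclear factors. In the cytokine receptor and STAT list, 17 of 44 genes were higher and 11 lower. Stat3 was 2.79-fold higher, whereas Stat5a, Stat5b, Stat6 and Stat2 differed by less than 2-fold. Genes upstream of Stat4 were higher too. Il12rb2, a chain of the IL-12 receptor, was at 6.35 and 8.77. Jak2, which serves that receptor, was at 10.30 and 13.33 and Tyk2 at 9.27 and 10.35. Il12rb1, the other chain of the IL-12 receptor, was at the floor on both arrays. Il18r1, a chain of the IL-18 receptor, was at 7.04 and 10.86. The IL-2 receptor chain gene Il2ra was 4.39-fold higher and Il21r 4.30-fold higher. Socs2, a feedback inhibitor, was 18.5-fold higher. Receptor genes for CSF1, G-CSF, interferon-gamma and IL-17 were lower, with Csf3r 6.20-fold lower, Ifngr1 5.28-fold lower and Il17ra 4.98-fold lower. The IL-1 decoy receptor gene Il1r2 was 11.6-fold lower. For IL-6, the binding chain gene Il6ra was 7.69-fold lower, but Il6st, the signalling chain gene, was more than 2-fold higher. The GM-CSF receptor chains split, Csf2ra at 12.02 and 10.58 and Csf2rb2 at 11.87 and 12.99.

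In the non-canonical branch of the NF-kB pathway, the kinase NIK frees p52 and RelB. Map3k14, the NIK gene, was at 6.97 and 11.46 (22.4-fold higher), Relb at 7.79 and 12.13, and Nfkb2, the precursor of p52, whose promoter window is printed above with its NF-kB matches, was 7.10-fold higher. The canonical subunit genes Rela (10.43 and 11.26) and Ikbkb (10.71 and 11.58) differed by less than 2-fold, and Rel, which belongs to that branch, was 10.8-fold higher. Traf1 was 28.0-fold higher and the ubiquitin ligase gene Birc2 14.6-fold higher, and Traf6 4.20-fold higher. Of the feedback inhibitors, Nfkbia was within 2-fold (12.80 and 13.46), while Nfkbie (3.38-fold higher) and Tnfaip3, the A20 gene (2.53-fold higher), were higher. The inflammatory kinase gene Ikbke was 5.40-fold lower and the superoxide dismutase gene Sod2 2.54-fold lower. In all, 13 of 42 genes were higher and 3 lower, with a median of 0.72.

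Transcription factor genes were split evenly, with 13 higher and 14 lower of 43. Higher ones, beside the DC factors, included Zeb1 (10.4-fold higher), Ikzf4 (7.59-fold higher), Etv3 (7.05-fold higher), Hivep1 (6.36-fold higher) and Bcl6 (3.08-fold higher). Zeb2, the relative of Zeb1 and a factor of monocyte fate, was at 11.15 and 8.93. The 3 C/EBP factor genes of the list were lower, Cebpa 4.77-fold lower, Cebpb 12.3-fold lower and Cebpd 10.5-fold lower, and so were Mitf (10.45 and 7.26) and Tfec (10.33 and 6.63), factors of lysosome and macrophage genes. Spi1, which encodes PU.1, was at 11.51 and 10.79.

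Of 41 AP-1, Egr, Nr4a and related genes, 17 were lower and 8 higher (median -0.18). Egr1 was at 10.87 and 6.42 (21.9-fold lower), Egr2 at 9.94 and 7.39, Fos at 12.85 and 9.82 and Klf4 at 11.24 and 7.96. Dusp6, a brake on ERK signalling, was at least 13.4-fold lower and Klf10 at least 9.61-fold lower. By its brightest probe set the orphan receptor gene Nr4a3 was at 8.21 and 13.27 (33.2-fold higher), but its 2 probe sets disagreed, with log2 differences of 0.07 and 5.05. Also higher were Batf3, the Myc antagonist gene Mxd1 (9.35-fold higher) and Dusp5 (6.74-fold higher), while Myc itself was 3.27-fold lower. Junb, Jund and Dusp1 were level.

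**Figure D4:**
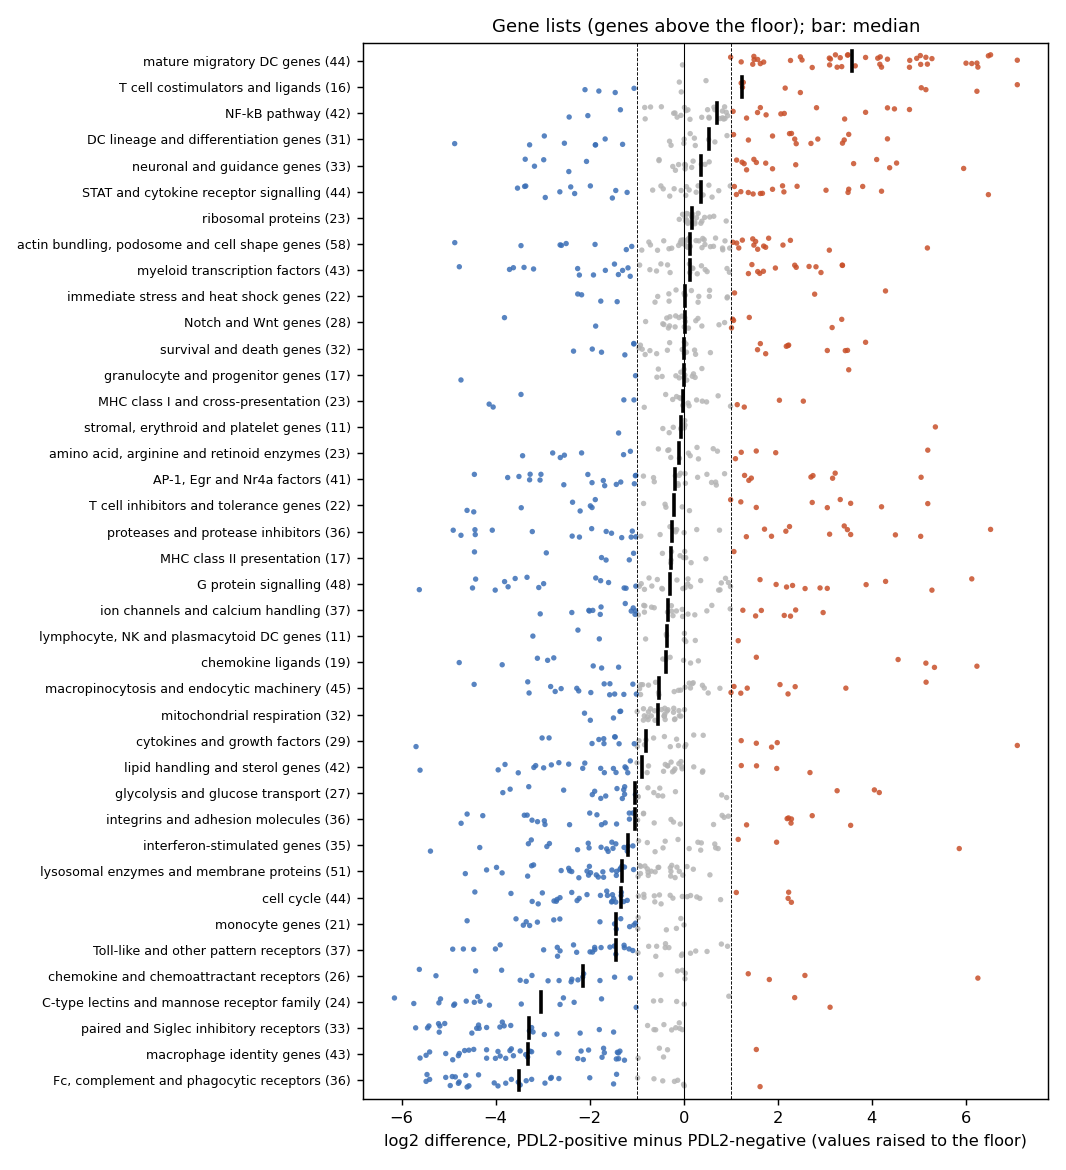
Log2 difference (PDL2-positive minus PDL2-negative) of every gene above the floor in each list with at least 10 such genes, with the number in parentheses; the black bar is the median and dashed lines mark 2-fold. The mature migratory DC list lies furthest to the right (median 3.58), and the lists of phagocytic receptors (-3.50), macrophage identity genes (-3.32) and paired receptors (-3.28) furthest to the left.

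Receptors for uptake were low in PDL2-positive cells. Of 24 C-type lectin and mannose receptor family genes, 17 were lower and 2 higher, with a median of -3.04. The mannose receptor gene Mrc1 was at 11.32 and 5.58 or less, Clec4a2 at 11.82 and 6.65, Clec4n, the Dectin-2 gene, at 13.86 and 9.73, and Clec7a, the Dectin-1 gene, at 13.69 and 11.06. The langerin gene Cd207 was 10.9-fold lower and Cd209a, a DC-SIGN relative, at least 29.2-fold lower. Ly75, which encodes the endocytic receptor DEC-205, was at 7.11 and 10.22 (8.67-fold higher) and Clec2i was 5.15-fold higher, the 2 that were higher.

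The phagocytic receptor list had 28 of 36 genes lower, with a median of -3.50. The Fc receptor genes Fcgr2b and Fcgr3 were 44.0-fold lower and 27.7-fold lower, and their shared signalling chain gene Fcer1g was at 13.63 and 10.40. Axl, a receptor for dying cells like Mertk, was 30.3-fold lower and their bridging ligand gene Gas6 at least 13.8-fold lower. The scavenger receptor gene Msr1 was 29.0-fold lower, Cd93 31.2-fold lower, Lrp1 16.3-fold lower and Cd36 7.03-fold lower. Olr1, the oxidized LDL receptor gene, was the 1 higher gene (at least 3.09-fold higher). Mfge8, which bridges cells to dying neighbours, was within 2-fold at 13.25 and 12.81.

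Paired immunoreceptors, which set thresholds for myeloid activation, were lower as a group, with 24 lower and 0 higher of 33. Sirpb1a was at 11.50 and 5.80, Cd300lb at 10.79 and 5.58 or less, Pilra at 10.78 and 5.58 or less and Cd200r1, the receptor of CD200, at 11.87 and 6.79. The adaptor gene Tyrobp, through which many of them signal, was within 2-fold at 14.02 and 13.39. The Ms4a membrane protein genes Ms4a6b, Ms4a6c and Ms4a6d were 42.7-fold lower, 36.4-fold lower and 43.6-fold lower.

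Of 45 genes of macropinocytosis and the endocytic machinery, 9 were higher and 16 lower. The clathrin heavy chain gene Cltc (12.51 and 12.31) and the adaptor gene Ap2b1 (9.90 and 10.09) were level, and so was Rab5a, which marks early endosomes, at 10.67 and 10.87. The endocytic adaptor gene Dab2 was 21.9-fold lower, the caveolin gene Cav1 at least 9.76-fold lower and Ehd4 6.64-fold lower. Genes of vesicle transport towards the surface were among the higher ones: the syntaxin gene Stx11 was at 6.49 and 11.65 (35.7-fold higher), Rab38 was 10.9-fold higher, Rab27a 4.67-fold higher, Ehd1, a recycling protein, 5.19-fold higher, and Rab8b 2.10-fold higher. Of 12 Rab genes 5 were higher and 1 lower.

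Of 51 lysosomal genes, 28 were lower and 0 higher, with a median of -1.31. Of 11 cathepsin genes, 6 were lower and 5 within 2-fold. Ctsk was at 11.07 and 6.43, Ctsl at 13.33 and 10.01 and Ctsd at 13.67 and 10.43, while Ctss, which trims the invariant chain in DCs, was at 14.34 and 14.06 and Ctsh at 13.19 and 13.40. The V-ATPase subunit gene Atp6v0d2, a macrophage and osteoclast form, was 15.8-fold lower, and the general subunit genes Atp6v0d1 (12.05 and 11.52) and Atp6v1b2 (12.48 and 12.39) were within 2-fold. The alpha-galactosidase gene Gla was 14.5-fold lower, the acid lipase gene Lipa 5.44-fold lower and the cholesterol transporter gene Npc1 4.01-fold lower.

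In the MHC class II presentation list 1 of 17 genes was higher and 6 lower, with a median of -0.27. The main MHC class II genes did not differ between the gates by 2-fold. H2-Aa (14.50 and 14.54), H2-Eb1 (14.17 and 14.19) and Cd74 (14.33 and 14.33) were level. H2-DMa, a chain of the peptide exchange factor, was at 13.14 and 10.22 (7.57-fold lower), and Marchf1, a ubiquitin ligase that removes MHC class II from the surface, was at least 21.8-fold lower. H2-Oa was 2.10-fold higher, a call lost with the deposited values or median centring, and H2-Ob, its partner, was at least 3.14-fold lower. In the MHC class I and cross-presentation list 4 of 23 genes were higher and 5 lower, with a median of -0.02. Among the higher ones, Tapbpl, a peptide editor gene, was 5.85-fold higher and the transactivator gene Nlrc5 4.11-fold higher. The proteasome activator gene Psme1 was 2.45-fold higher. Wdfy4 and Cybb, both tied to cross-presentation, were lower, Wdfy4 at 10.59 and 6.46 and Cybb, a phagocyte oxidase subunit gene, at 13.82 and 9.77.

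Sensors of microbes were lower, 23 of 37 with 0 higher (median -1.44). Of 10 Toll-like receptor genes above the floor 8 were lower. Tlr2 was at 12.38 and 7.70, Tlr4 at 10.16 and 6.26 and Tlr13, a sensor of bacterial RNA, at 11.01 and 8.33. Tlr9 (7.29 and 6.97) and Tlr12 (5.58 or less and 6.51) differed by less than 2-fold. The LPS co-receptor gene Cd14 was 22.1-fold lower, and Ly96, the MD-2 gene, was level at 8.15 and 8.65. The necroptosis genes Ripk3 and Mlkl were 5.07-fold lower and at least 7.87-fold lower.

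Among secreted factors other than Ccl22, Ccl17 was at 7.27 and 12.43 and Ccl5, which attracts activated T cells, at 8.86 and 14.20. The CC chemokine genes Ccl3 (14.5-fold lower), Ccl6 (8.63-fold lower) and Ccl9 (6.78-fold lower) and the neutrophil attractant gene Cxcl2 (27.3-fold lower) were lower, and 5 of 19 chemokine genes were higher against 8 lower. Among growth factors, Igf1 was at 12.26 and 6.56 and Il16 was at least 7.27-fold lower, while Lif was at least 3.66-fold higher. Il1b was at 10.08 and 8.39 and Tnf at 8.11 and 6.41, both lower in PDL2-positive cells.

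Of 36 protease and inhibitor genes, 12 were higher and 15 lower. The metalloproteinase genes Mmp12, Mmp8 and Mmp13 were lower, Mmp12 at 13.91 and 9.47, Mmp8 at 13.30 and 8.56 and Mmp13 at least 16.8-fold lower, together with the inhibitor gene Timp2 (21.6-fold lower) and the urokinase receptor gene Plaur (29.9-fold lower). Mmp23 was 11.2-fold higher, and the ADAM genes Adam19, Adam8 and Adam23 were 10.7-fold higher, 3.66-fold higher and 2.52-fold higher. Of 7 intracellular serpin genes 4 were higher and 1 lower, with Serpinb6b at 5.58 or less and 12.11, Serpinb1a at 6.16 and 10.67 and Serpinb9b at least 11.8-fold higher, while Serpinb6a (11.25 and 10.34) was within 2-fold and Serpinb8 was 3.88-fold lower. Spint2, a membrane-bound inhibitor gene, was 8.62-fold higher.

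Interferon-stimulated genes were lower rather than higher in PDL2-positive cells, 19 of 35 against 3 higher. Ifit2 was at 8.49 and 5.58 or less, Ifi47, a GTPase gene, at 10.44 and 7.58, and Ly6e at 13.07 and 7.69. Mx1 was the clearest exception at 6.96 and 12.83, while its relative Mx2 was at 5.86 and 6.54. Usp18 was 3.94-fold higher and Bst2 2.24-fold higher.

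Of 18 mitotic genes above the floor, 17 were lower (median -2.32), with Mki67 at 10.65 and 6.21, Ccna2 at 9.36 and 6.27, Top2a at 9.35 and 6.59 and Ccnb2 at 9.25 and 5.58 or less. The 6 subunits of the MCM helicase, which opens DNA for replication, all lay within 2-fold, from -0.84 to 0.79. All 4 measured inhibitors of cyclin-dependent kinases were higher, Cdkn1a, the p21 gene, at 10.26 and 12.50, Cdkn2c at 8.21 and 10.50, Cdkn1b at 8.96 and 10.08 and Cdkn2b at 5.58 or less and 7.96. Ccnd1 was 4.66-fold lower and Ccnd2 4.67-fold higher, while Ccnd3 was level. These subsets were formed after their values were seen, and in the whole cell cycle list 25 of 44 were lower and 4 higher.

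Survival and death genes went both ways. The BH3-only death genes Pmaip1 (NOXA), and Bbc3 (PUMA) were 10.9-fold higher and 4.55-fold higher, while Bid was 3.35-fold lower. The inhibitors Birc3 and Cflar were 3.10-fold higher and 2.98-fold higher, and Mcl1 was level at 12.65 and 12.67. Bcl2l1, which encodes BCL-XL, was at 8.62 and 7.81. Of the whole list, 10 of 32 were higher and 6 lower.

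In glycolysis and glucose transport 14 of 27 were lower and 3 higher. Hk2 was at 9.98 and 6.69, Hk3 at 10.28 and 6.44, the glucose transporter gene Slc2a1 at 10.63 and 8.08 and Ldha at 12.63 and 10.87. The enolase genes Eno2 and Eno3, forms typical of neurons and muscle, were at least 9.63-fold higher and 17.9-fold higher, and Pfkfb3, which makes an activator of glycolysis, was at 7.82 and 11.88. Mitochondrial respiration genes had 5 of 32 lower and 0 higher (median -0.54). Sterol synthesis genes such as Hmgcs1 (11.61 and 11.42) and Sqle (10.31 and 9.92) were level, whereas several genes of lipid uptake and mediator synthesis were lower: the lipoprotein lipase gene Lpl was at 13.40 and 11.25, Alox5ap, which serves leukotriene synthesis, at 13.95 and 10.15, and Hpgds, which makes prostaglandin D2, was at least 15.4-fold lower. Ltc4s, the leukotriene C4 synthase gene, was 2.93-fold higher and Ch25h 6.45-fold higher. The stress-response gene Ddit4, an inhibitor of mTOR, was at 5.68 and 9.98, while Gclm (3.39-fold lower) and Nqo1 (4.50-fold lower), targets of NRF2, were lower. Ribosomal protein genes, 23 in number, were all within 2-fold with a median of 0.18.

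Genes named for the nervous system formed a further group. Ndrg4 was at 6.62 and 12.58, the adhesion molecule gene Dscaml1 at 5.58 or less and 9.96, Sema7a, a membrane semaphorin gene, at 6.43 and 10.54, and the ephrin gene Efnb2 at 5.58 or less and 9.20. The guidance receptor genes Nrp1, Plxna1 and Plxnb2 were lower, Nrp1 at 10.73 and 7.36, Plxna1 at 10.61 and 7.43 and Plxnb2 at 10.65 and 8.59, with Plxnc1, a receptor for semaphorin 7A, an exception (2.44-fold higher). The list had 14 higher and 5 lower of 33. In the Notch and Wnt list 6 of 28 were higher and 2 lower: Notch1 was at 9.95 and 6.14, Notch2 was level at 10.19 and 9.89, and Wnt11 was 8.94-fold higher. Of ion channel genes, Kcnk6 was 2.89-fold higher and the potassium channel gene Kcnn4 4.04-fold lower, and Tmem176a and Tmem176b were 7.83-fold higher and 4.41-fold higher.

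Outside all lists, the genes with the largest increases above the floor on both arrays were Sod3, an extracellular superoxide dismutase (5.97 and 11.70), the dynein gene Dnah2 (7.14 and 12.85), 2610528A11Rik (7.04 and 12.43), Net1 (6.72 and 12.11), and Clu, the clusterin gene (7.79 and 13.12). For Clu, 4 probe sets gave log2 differences from 4.85 to 6.31. Tspoap1, Adgrg6, Fnbp1l, Bcl2l14, Glipr2, Sned1, Cdkal1, Arap2, Kdm4a and Plekhg2 came next, from 20.6-fold to 40.0-fold. On the LPS array Sod3 was at 7.34, Clu at 8.19 and Bcl2l14 at 6.91, below their PDL2-positive levels. Fnbp1l, at 10.95 in PDL2-positive cells, was at 11.05 with LPS, and Kdm4a, at 12.25, was at 10.52. The largest decreases outside the lists were those of the ubiquitin ligase gene Rnf128 (12.13 and 6.57), Tgfbi, an extracellular matrix protein gene (13.50 and 7.96), Hacd4 (12.17 and 6.64) and F7, coagulation factor VII (11.59 and 6.43). The 4 probe sets of Tgfbi ran from -5.97 to -5.14. The metal transporter gene Slc11a1 was 28.1-fold lower, Cd84 32.4-fold lower, Igsf6 27.7-fold lower and F10, coagulation factor X, 23.2-fold lower.

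Genes that follow each other on a chromosome were also examined, among 10663 genes above the floor with a place in the RefSeq table of GRCm38.p6. Genes of 1 chromosome were left out of this number and of the search. Genes at the floor on both arrays or with no probe set of their own were skipped, so measured neighbours need not be adjacent. There were 25 runs of at least 4 consecutive measured genes that all differed by 2-fold in 1 direction, 13 of them higher and 12 lower. Over all described genes 10.1% were higher and 13% lower. How many runs these shares would give in a random gene order was not tested. The longest, on chromosome 6, had 8 genes and held C3ar1, Necap1 and the C-type lectin genes Clec4a3, Clec4b1, Clec4a2, Clec4n, Clec4d and Clec4e, with a median of -4.29. On chromosome 11, 5 CD300 receptor genes in a row had a median of -3.86, and a run of 7 genes held Ccl9, Ccl6, Ccl3 and Ccl4. On chromosome 3, Gpr171, P2ry14, P2ry13 and P2ry12 formed a run with a median of -3.57, and Ifit2, Ifit3 and Ifit1 lay in a run of 5 on chromosome 19. The clearest run of higher genes was that of Serpinb1a, Serpinb6b, Serpinb9 and Serpinb9b on chromosome 13, with a median of 4.78. The next 2 genes, Serpinb6e and Serpinb6a, were within 2-fold. Probe sets of close relatives, such as the Clec4, Ms4a6, Sirpb1 and Ifit genes, may detect one another, so their separate values are uncertain.

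**Figure D5:**
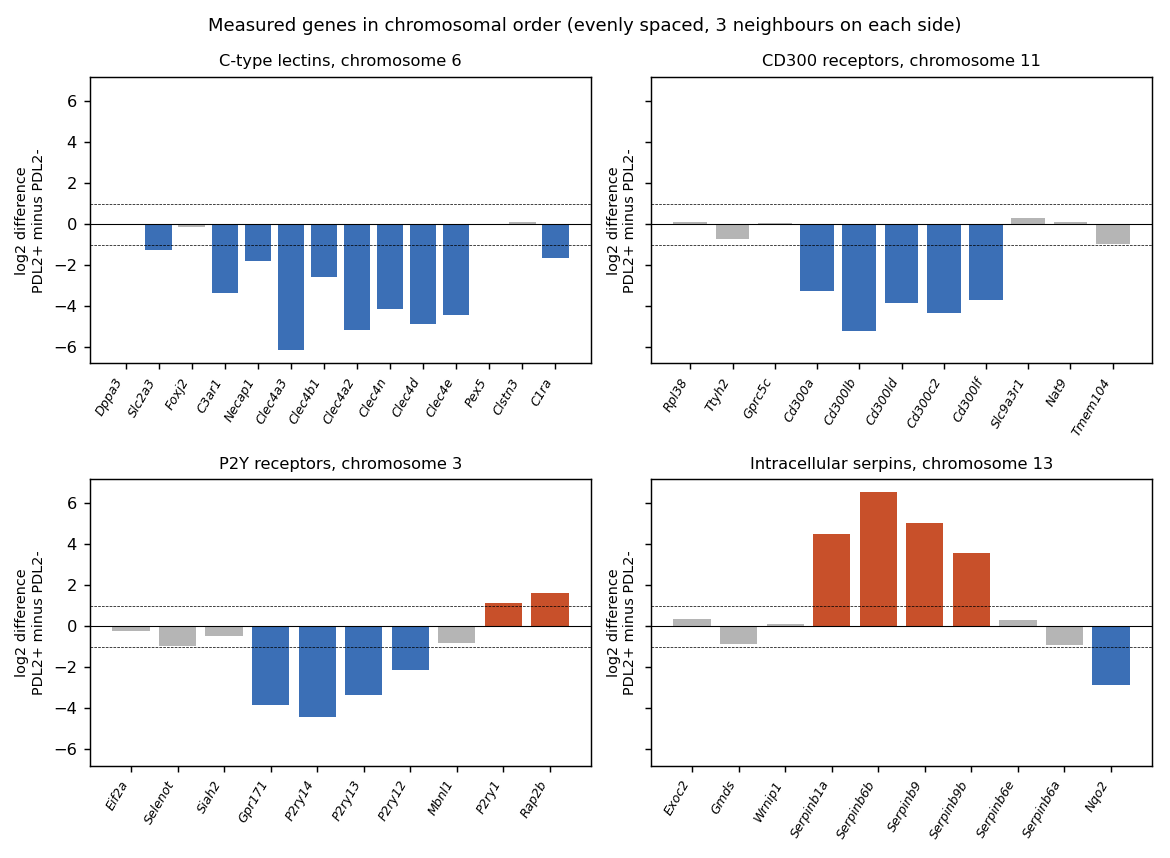
Log2 difference (PDL2-positive minus PDL2-negative) of measured genes in their order along the chromosome, evenly spaced, for 4 of the runs with 3 neighbours on each side; dashed lines mark 2-fold. Each run ends at a neighbour within 2-fold, as at Pex5 beside the lectin genes and Serpinb6e beside the serpins.

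The remaining lists were described by counts. In the amino acid, arginine and retinoid enzyme list 5 of 23 genes were higher and 7 lower, and in the stress and heat shock list 3 of 22 were higher and 4 lower. The metallothionein gene Mt2 was 6.91-fold higher and the haem oxygenase gene Hmox1 4.76-fold lower. Among ion channel and calcium genes 7 of 37 were higher and 12 lower. Of lipid and sterol genes 4 of 42 were higher and 20 lower (median -0.88). In the stromal, erythroid and platelet list the carbonic anhydrase gene Car2 was the 1 higher gene, at 6.59 and 11.94, and the platelet factor 4 gene Pf4, which macrophages also express, was the 1 lower gene (2.61-fold lower).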

How the data were processed

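Total RNA of sorted mouse bone marrow-derived DCs was hybridized to 3 short-oligonucleotide arrays, 1 per group, so precision is limited by the number of arrays. Values as deposited by the authors are 1 log2 signal per probe set and array. The background correction, normalization and summary behind these values are not given in the sources used here. Of 38546 probe sets, 13 controls were left out, and the 3 arrays were quantile normalized over the other 38533. GEO's platform annotation gave 33987 probe sets 1 gene, 449 several and 4110 none; 33800 symbols were updated through Entrez numbers in the RefSeq table (GRCm38.p6). A gene took the value of the probe set with the highest mean signal. Values below the median of all normalized values were raised to it, and genes at that floor on both untreated arrays were not described further. Differences are PDL2-positive minus PDL2-negative, and no test was made. Promoter motif shares were counted on both strands in the first RefSeq window of each gene. The motif shares and the chromosomal runs left out 1 chromosome. Python 3.11.15, numpy 2.4.6 and pandas 2.3.3 were used, and the counting was tested on simulated data.

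The members, the 43 gene lists and the subsets were chosen with earlier results of these data known, so no list is independent evidence. Any gene of a list could be named, led by the largest differences. Of genes on no list, those named came from the 15 with the largest increases and the 15 with the largest decreases above the floor on both arrays whose probe sets ran in 1 direction. Genes named only as chromosomal neighbours were chosen after their values were seen. Alternatives changed the normalization, the floor, the summary of probe sets and the size rule.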

Additional observations from a re-analysis of the deposited data

How the results depend on the processing

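The numbers of higher and lower genes stayed within 1.5 times the values reported under the other normalizations, floors and probe set summaries, with 780 to 1171 higher and 944 to 1523 lower genes. The size rule moved both: at 1.5-fold, 1939 genes were higher and 2229 lower, and at 3-fold, 587 were higher and 803 lower. No list median past 2-fold changed sign under these alternatives, while some medians near 0, such as those of the MHC class I and the survival lists, did. In size, 15 list medians moved with the floor at the 75th percentile, 11 with the mean and 12 with the median over all probe sets, and 8 with no floor. No paired analysis was possible because each group holds 1 array. For the same reason no array could be left out, and no variation between cultures or mice was measured. A difference against the floor is a lower bound, so the sizes of the 135 higher and 227 lower genes with such a value depend on where the floor is set. Of the genes named in the text, Il6st aside, 2 fell below the 2-fold rule with the deposited values or median centring, Cd274 and H2-Oa. With the floor at the 75th percentile, where bounds shrink, 26 fell below the rule, Cd80, Bbc3 and Ccl4 among them. Another 11 that were past the rule were at that floor on both arrays. The mean over all probe sets took 10 named genes below the rule and left 0 unmeasured, and the median took 13 below it and left 3 unmeasured.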

Other observations

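The LPS array of PDL2-negative cells gives a second view of several genes that were high in untreated PDL2-positive cells, as values with no comparison between the differences, since both share the untreated PDL2-negative array. For some of these genes the LPS array lay closer to the untreated PDL2-negative than to the PDL2-positive array. Kit had log2 signals of 6.26 in PDL2-negative untreated, 9.78 in PDL2-positive untreated and 6.97 in PDL2-negative LPS-treated cells, and Eno3 of 6.24, 10.40 and 5.97 in the same order. Il18r1 was at 7.04, 10.86 and 5.58 or less, and Stat4 at 6.41, 12.90 and 7.57.

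Other genes were high on both of those arrays. Mx1 was at 6.96, 12.83 and 13.02, Il12b at 5.58 or less, 12.68 and 11.15, and Cd274 at 9.92, 10.92 and 12.07. Further genes lay at the floor on both untreated arrays and above it with LPS: Il10 was at 11.27, Il12a at 9.43 and Marco at 10.06. The interferon-induced genes Ifit2 (13.37) and Usp18 (13.33) were above both untreated levels with LPS. With 1 array a group, none of these patterns has a replicate check.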
